A study of Homo sapiens with 4 samples.

Results

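The SMAD and ID genes described here are 10 protein-coding genes, taken by their symbols from the 20323 gene rows of the files: SMAD1, SMAD2, SMAD3, SMAD4, SMAD5, SMAD6 and SMAD7, and ID1, ID2 and ID3. Each symbol belonged to 1 row, and all 10 passed the filter on low counts. Poly(A) RNA was sequenced from a 5-fluorouracil-resistant derivative of the human colorectal cancer line HCT-8. There were 2 control libraries (negative control plasmid) and 2 METTL14 overexpression libraries (METTL14 plasmid), numbered 1 and 2 in each group. Both groups were also given cycloheximide, which stops ribosomes from elongating proteins, at 100 ug/mL. METTL14 is the partner of METTL3 in the enzyme that writes N6-methyladenosine (m6A) on messenger RNA. The series describes 2 independent experiments, and all libraries come from a single cell line. In such bulk RNA, fewer cells that express a gene and less of its RNA per cell cannot be told apart.

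SMAD proteins carry signals of the transforming growth factor beta (TGF-beta) family from the cell surface to the nucleus. Ligands of the BMP branch lead to phosphorylation of SMAD1 and SMAD5, ligands of the TGF-beta and activin branch to that of SMAD2 and SMAD3, and both kinds bind SMAD4, while SMAD6 and SMAD7 inhibit the pathway. ID proteins have a helix-loop-helix domain but no basic region, so they bind E proteins and keep them from DNA, and their genes are classic early targets of BMP signals. In the colon, BMP signals favour differentiation, TGF-beta restrains epithelial growth, and SMAD4 is often lost in tumours.

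The plasmid was visible in the libraries: METTL14 counts were 472 and 598 without it and 7593 and 8516 with it, 14.7-fold higher in CPM (counts scaled to the library's total). Total counts lay between 19206663 and 20161078 per library. Replicates stood further apart among the controls (chi-square over degrees of freedom 29.8) than with METTL14 (3.34). Of 10 colon epithelial markers, 9 reached a mean of 1 CPM in the controls and all 10 with METTL14; their summed level was 18252 and 11917 CPM in the controls and 9379 and 9157 CPM with METTL14. The summed level of 9 leukocyte markers was 20.5 and 19.6 CPM against 70.5 and 70.2 CPM, with CD3E, MS4A1 and FCGR3A at 0 counts in every library. Of these 9, 2 reached a mean of 1 CPM in the controls and 3 with METTL14. Over all libraries LYZ and CD68 alone did, so few genes make up this sum. Fibroblast markers summed to 13.4 to 20.4 CPM and endothelial markers to 0.513 to 1.90 CPM. The part of these marker levels in the results was not tested.

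Sequence near the genes is shown first. The ID1 promoter is given because ID1 had the smallest p-value of the members, from 250 bases before the RefSeq start to the last base before the first exon of GENCODE (GRCh38.p14, chr20:31605039-31605282, plus strand). Capitals mark GTCT, the short SMAD-binding sequence, CCAAT and TATAAA, on either strand.
ID1 promoter: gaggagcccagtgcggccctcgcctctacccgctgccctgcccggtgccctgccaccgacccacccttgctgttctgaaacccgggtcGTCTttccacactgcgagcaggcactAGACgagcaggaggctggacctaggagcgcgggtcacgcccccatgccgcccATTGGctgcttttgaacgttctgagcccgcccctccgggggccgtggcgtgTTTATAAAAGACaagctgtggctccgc
The SMAD6 window (GRCh38.p14, chr15:66702206-66702235, plus strand) ends at the base before the RefSeq start and reaches into the first exon of GENCODE. It is shown because it holds the palindrome GTCTAGAC, in capitals, which starts at position -12 from that start.
SMAD6 window: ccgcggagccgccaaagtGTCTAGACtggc

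Of 35116 RefSeq promoter windows of 250 bases before a start, 0.182% hold GTCTAGAC, and 77.5% hold GTCT, which is part of it. The ID1 window holds GTCT, CCAAT (in 32.0% of all windows) and TATAAA (10.7%), and none of GGCGCC (16.4%), CANNTG (61.8%), CACGTG (6.35%) or TGACGTCA (1.65%). CACGTG is a form of CANNTG, and all 8 motifs were searched on both strands. GGCGCC, the core of the BMP response sequence, was found in windows of SMAD1, SMAD2, SMAD3 and SMAD4 and in none of ID1, ID2, ID3, SMAD5, SMAD6 or SMAD7. The genes had unequal numbers of windows: 5 each for SMAD1 and SMAD3, 3 for SMAD7, 2 for SMAD2 and 1 for each other member. Not every window of SMAD1 or SMAD3 held GGCGCC, and sequence further upstream was not searched for any gene. The RefSeq windows of ID2 and ID3 overlap exons that GENCODE gives to the same gene and are not printed. Only 48 bases of the ID2 window and 0 of the ID3 window lie before such an exon. These matches describe letters in a window and were not tested against the expression values.

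METTL14 and METTL3 methylate adenosine mostly within a short motif whose most favoured form is written GGACT in DNA letters, and m6A is known to cluster around stop codons. In 1 GENCODE transcript per gene, ID1 had no GGACT and ID3 had 3, or 2.40 per kilobase. The other members had 0.522 to 1.14 per kilobase. Over 12540 tested genes with such a transcript the median was 0.953, with quartiles at 0.575 and 1.42, and 4 of the 10 members lay above the median. The windows within 200 bases of a stop codon are shown with GGACT in capitals, because they are where a reader would look for the mark, and no m6A was measured in the data analysed here.
ID2, coding: agatcgccctGGACTcgcatcccac
ID2, 193 bases past the stop codon: tctcttacttGGACTgtgatattcg
ID3, 174 bases past the stop codon: caggagcgaaGGACTgtgaacttgt
SMAD2, 76 bases past the stop codon: tggtccctatGGACTgtttactatc
SMAD4, 41 bases past the stop codon: tcaggatggtGGACTacaaaataca
SMAD5, 34 bases past the stop codon: tattgttagtGGACTtgttttaatt

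ID1, ID3, SMAD3, SMAD4 and SMAD6 rose with METTL14, and SMAD1, SMAD2, SMAD5, SMAD7 and ID2 did not pass the test. The comparison asks which transcripts the METTL14 plasmid group holds at another level than the control plasmid group. Levels are CPM after TMM normalization, and calls come from edgeR's quasi-likelihood test with Benjamini-Hochberg adjustment over 12700 genes at 0.05. The 5 of 10 members that were higher stand beside 27.0% of all tested genes that were higher, and no member was lower beside 28.1% of all genes. In either direction 55.1% of all genes were called, so 5 calls among 10 members are close to the background, while their direction was one-sided. No member was lower at an unadjusted p below 0.05, or by DESeq2 or limma-voom. The median log2 fold change of the members was 0.32, and that of all tested genes was -0.01. CPM of the groups did not overlap for 8 of the 10 members, against 79.8% of all genes. For 7 of the 10 members the groups did not overlap and METTL14 was the higher one, against 39.8% of all genes. Where a library is left out below, its group has 1 library, which is assumed to vary like the other group, so the spread comes from the other pair alone: the close METTL14 pair when a control is left out, and the wider control pair when a METTL14 library is left out. Calls gained or lost that way reflect this spread as well as the fold change. Together the share of counts that fell on the members was 0.0479 and 0.0582% for the controls, against 0.0811 and 0.0794% for METTL14.

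**Figure D1:**
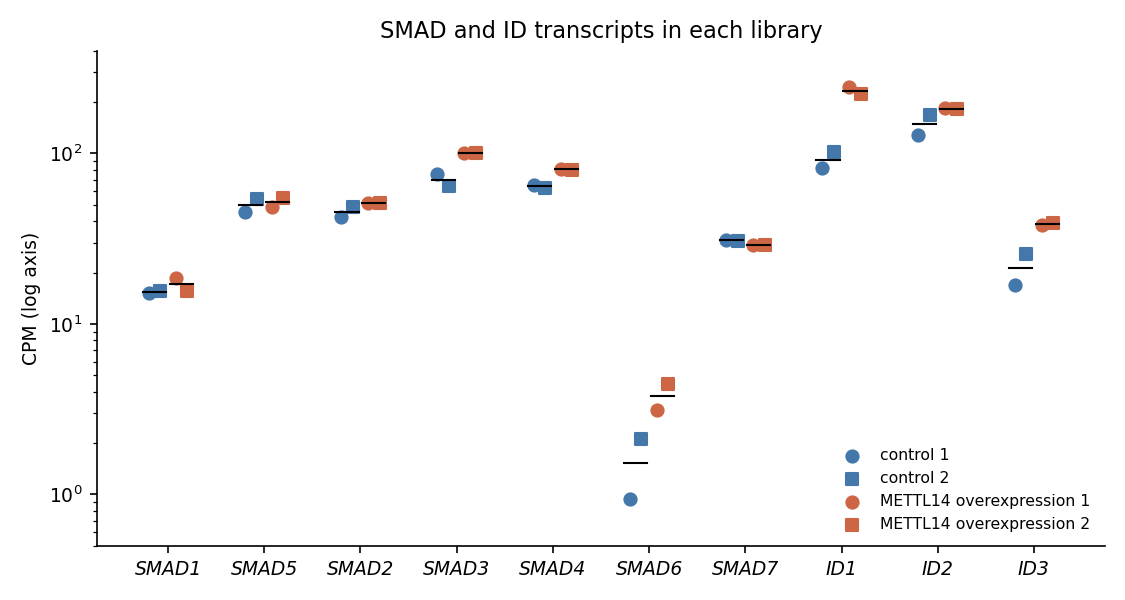
Levels of the 10 members in each library, in CPM on a log axis, with blue for control and orange for METTL14 overexpression, circles for replicate 1 and squares for replicate 2, and a black line at each group's mean. The METTL14 overexpression points of ID1 (222 and 246 CPM) lie well above its controls (81.7 and 102 CPM), while those of SMAD1 and SMAD5 overlap with their controls.

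ID1 (ENSG00000125968, GRCh38 chromosome 20, 31605283 to 31606515, plus strand) showed the clearest rise. It had 81.7 and 102 CPM in the controls and 246 and 222 CPM with METTL14, or 92.0 ± 14.6 against 234 ± 16.9 CPM (SD, n = 2). The groups were far apart, with both METTL14 values above 2 times the higher control. The change was 2.54-fold (log2 fold change 1.34, SE 0.133, edgeR adjusted p = 0.000268), with a 95% interval of 2.04- to 3.15-fold. It was the sole member called when a change beyond 1.5-fold was asked for (edgeR glmTreat adjusted p = 0.00191). 93.5% of tested genes had a lower log2 fold change than ID1.

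ID3 (ENSG00000117318, chromosome 1, 23557918 to 23559794, minus strand) was lower in level and rose as well. It had 16.8 and 25.9 CPM in the controls and 38.2 and 39.0 CPM with METTL14, with 323, 504, 743 and 789 counts behind these values. The METTL14 libraries were almost equal, and the controls were lower and more spread. The rise was 1.81-fold (log2 fold change 0.85, SE 0.194, edgeR adjusted p = 0.00793), with an interval of 1.32- to 2.48-fold. Without control replicate 1 the log2 fold change was 0.58, and without control replicate 2 it was 1.196.

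ID2 (ENSG00000115738, chromosome 2, 8678845 to 8684453, plus strand), the most abundant member in the controls by CPM, had 128 and 169 CPM there and 184 and 181 CPM with METTL14. Both METTL14 libraries were above both controls, but control 2 lay close to them. The log2 fold change of 0.30 (SE 0.138, edgeR adjusted p = 0.105) was not called, and its interval of 0.981- to 1.54-fold takes in no change as well as a rise. The value depended on the controls: without control replicate 2 the log2 fold change was 0.50 and was called, with the spread from the METTL14 pair alone (SE 0.0694), and without control replicate 1 it was 0.12 and was not called. With all 4 libraries ID2 was called as higher with the replicate number as a block (0.31, edgeR adjusted p = 0.0188) and after a trend of fold change with exon length and GC content was taken out (0.39, edgeR adjusted p = 0.0462).

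Ratios of counts within a library need no scaling between libraries and show how the ID genes moved against each other. The ratio of ID1 to ID2 counts was 0.636 and 0.606 in the controls against 1.33 and 1.22 with METTL14, so ID1 passed from the lower to the higher count. The ratio of ID3 to ID2 was 0.131 and 0.153 against 0.207 and 0.215. That of ID1 to ID3 was 4.86 and 3.96 against 6.43 and 5.69. None of these ranges overlapped between the groups. For each of the 6 ratios computed, a two-sided exact permutation test over the 4 libraries gave p = 0.333, also after Benjamini-Hochberg adjustment. This is the smallest value that 2 libraries against 2 allow.

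**Figure D2:**
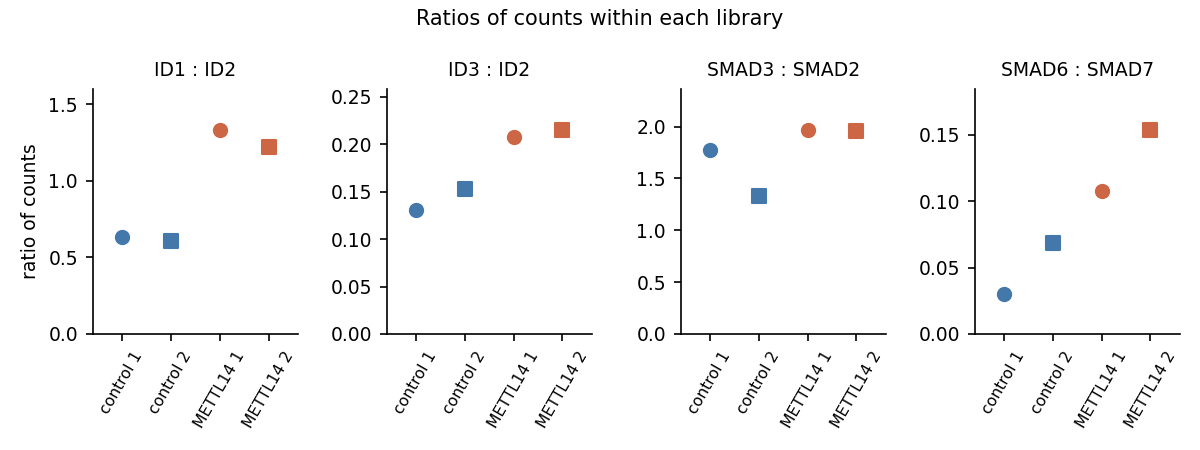
Ratio of the counts of 2 members within each library (linear axes from 0, a scale per panel, blue for control, orange for METTL14 overexpression). In each panel both METTL14 overexpression points lie above both controls, with SMAD3 : SMAD2 the closest (1.96 and 1.97 against 1.33 and 1.77).

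Of the SMADs of the TGF-beta and activin branch, SMAD3 rose and SMAD2 did not pass the test. SMAD3 (ENSG00000166949, chromosome 15, 67063763 to 67195195, plus strand) had 75.3 and 64.1 CPM in the controls and 101 CPM in each METTL14 library. The METTL14 values sat clear of both controls. The change was 1.45-fold (log2 fold change 0.53, SE 0.111, edgeR adjusted p = 0.00547), with an interval of 1.21- to 1.73-fold. SMAD2 (ENSG00000175387, chromosome 18, 47808957 to 47931146, minus strand) had 42.6 and 48.3 CPM in the controls and 51.3 and 51.5 CPM with METTL14. Its groups did not overlap, but control 2 came within a few CPM of the METTL14 libraries. The log2 fold change was 0.18 (SE 0.112, edgeR adjusted p = 0.218), with an interval of 0.942- to 1.36-fold, and it was called without control replicate 2, at 0.27 with the spread from the METTL14 pair alone. The ratio of SMAD3 to SMAD2 counts was 1.77 and 1.33 in the controls against 1.97 and 1.96 with METTL14.

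SMAD4 (ENSG00000141646, chromosome 18, 51028394 to 51085045, plus strand), the partner shared by both branches, rose slightly. It had 65.1 and 62.8 CPM in the controls and 81.5 and 79.7 CPM with METTL14. Within each group the libraries were close, and the groups were apart by more than that spread. The change was 1.26-fold (log2 fold change 0.33, SE 0.0943, edgeR adjusted p = 0.0198), and the call was lost without METTL14 overexpression replicate 1 (0.32, SE 0.21, adjusted p = 0.236) and without replicate 2 (0.35, SE 0.211, adjusted p = 0.187), with the fold change hardly moved and the SE larger. SMAD4 shares 7.37% of its exon bases with an overlapping gene on the same strand (ENSG00000267699, listed as ELAC1), which had 4 to 12 counts per library. Among the members, deposited counts were not whole numbers for SMAD4 in every library and for SMAD2 in all but control replicate 1.

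The SMADs of the BMP branch showed no called change. SMAD1 (ENSG00000170365, chromosome 4, 145481194 to 145558079, plus strand) had 15.2 and 15.7 CPM in the controls and 18.5 and 15.5 CPM with METTL14. SMAD5 (ENSG00000113658, chromosome 5, 136132845 to 136188747, plus strand) had 45.4 and 54.0 CPM against 48.2 and 55.1 CPM. For both genes the groups overlapped. The intervals ran from 0.868- to 1.399-fold for SMAD1 and from 0.841- to 1.28-fold for SMAD5, with edgeR adjusted p-values of 0.446 and 0.737. The sign of the SMAD5 change was not fixed, since its log2 fold change of 0.06 became -0.06 without control replicate 1 and was 0.38 after the length and GC trend was taken out (edgeR adjusted p = 0.0424). Antisense genes overlap 6.21% of the exon bases of SMAD1 and 6.75% of those of SMAD5, and the sources used here do not give whether reads were counted by strand.

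Of the inhibitory SMADs, SMAD6 rose from a low level and SMAD7 did not pass the test. SMAD6 (ENSG00000137834, chromosome 15, 66702228 to 66782848, plus strand) was counted 18 and 41 times in control libraries and 61 and 90 times in METTL14 libraries, or 0.936 and 2.10 against 3.13 and 4.45 CPM. The groups did not overlap, although the controls differed from each other by more than 2-fold. The change was 2.49-fold with a wide interval of 1.26- to 4.91-fold (log2 fold change 1.31, SE 0.418, edgeR adjusted p = 0.0312). The call was lost without METTL14 overexpression replicate 2 (1.04, adjusted p = 0.146) and after taking out the same length and GC trend (0.95, adjusted p = 0.0938), and the log2 fold change ranged from 0.85 without control replicate 1 to 2.01 without control replicate 2. SMAD7 (ENSG00000101665, chromosome 18, 48919853 to 48952052, minus strand), an inhibitor of both branches, was counted 599 and 600 times in control libraries and 565 and 585 times in METTL14 libraries, or 31.2 and 30.8 against 29.03 and 28.9 CPM. Its libraries were the most even of the members, and both METTL14 values lay just under the controls. The log2 fold change was -0.10 (SE 0.109, edgeR adjusted p = 0.48), with an interval of 0.783- to 1.12-fold. The ratio of SMAD6 to SMAD7 counts went from 0.0301 and 0.0683 to 0.108 and 0.154 with METTL14, and that of ID1 to SMAD7 from 2.62 and 3.32 to 8.46 and 7.67.

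**Figure D3:**
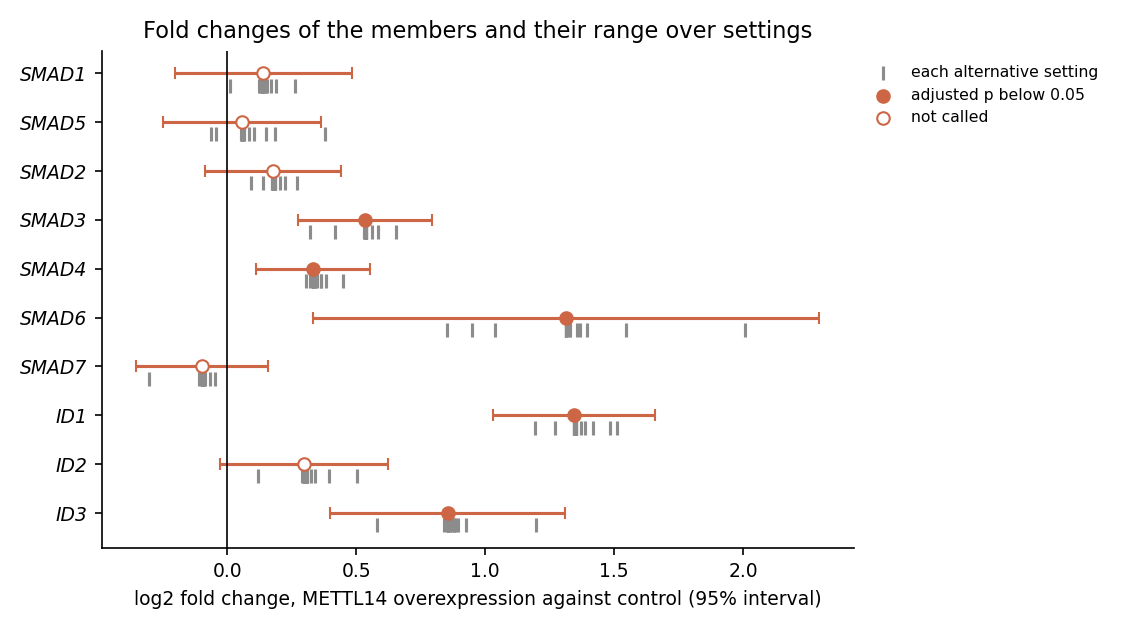
Log2 fold change of each member, METTL14 overexpression against control, with its 95% interval (filled where the edgeR adjusted p was below 0.05), and grey ticks for the value under each alternative setting. ID1 lies at 1.34 with a narrow interval and SMAD6 at 1.31 with a wide one, while the intervals of SMAD1, SMAD2, SMAD5, SMAD7 and ID2 cross 0.

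Control replicate 1 was the lower control for ID1, ID2, ID3, SMAD1, SMAD2, SMAD5 and SMAD6 and the higher one for SMAD3, SMAD4 and, by a small margin, SMAD7. Each fold change of the ID genes and of SMAD6 was therefore larger without control replicate 2 than without control replicate 1. In all, 5 members were called when control replicate 1 was left out, 7 for control replicate 2, 4 for METTL14 overexpression replicate 1 and 3 for METTL14 overexpression replicate 2.

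Per length, the ID genes stood above the SMADs. On a scale of counts per merged exon length, scaled to the same total in each library over all matched genes, the mean control level was 253 for ID1, 229 for ID2 and 40.4 for ID3. ID1 was above ID2 in each library, by less in the controls (220 and 287 against 194 and 264) than with METTL14 (677 and 607 against 284 and 278). Among the SMADs the control means were 25.9 for SMAD3, 20.8 for SMAD7, 18.7 for SMAD5, 16.5 for SMAD4, 8.64 for SMAD1, 4.24 for SMAD2 and 0.606 for SMAD6. SMAD7 was above SMAD5 in each control library (20.57 against 16.67 and 21.13 against 20.65), in control 2 narrowly. In METTL14 overexpression replicate 2 SMAD5 was the higher one (20.58 against 19.4), so the order of these neighbours is not settled. Both control values of SMAD5 lay above those of SMAD4 (16.49 and 16.54), one of them narrowly. The merged exons of SMAD2 span 36366 bases because of a very long 3′ end in the annotation, which lowers its value on this scale if shorter transcripts are made. For SMAD1 and SMAD6 the merged exons (6058 and 8563 bases) are longer than the transcript searched for GGACT (2085 and 3835 bases). The order of the SMADs may therefore depend on the length used. The remaining members of both families, SMAD9 and ID4, did not pass the filter. SMAD9, another BMP-branch SMAD, was counted 1 and 2 times in control libraries and 5 and 6 times in METTL14 libraries, a ratio of 3.58 (95% exact interval 0.944 to 19.96, for counting error only). For ID4 the counts were 2 and 1 in both groups.

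The other genes of the pathway were taken from lists chosen by role, with earlier results of these data known. Together they held 163 genes, of which 112 were tested, 38 (33.9%) were higher and 19 (17.0%) lower, beside 27.0% and 28.1% of all genes, and their median log2 fold change was 0.22. Some genes stand in more than 1 list. In either direction 55.1% of all genes were called, and the shares of all genes are the background for each list below.

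The list of ligands was called in 1 direction. Of 13 tested (30 listed), 7 (53.8%) were higher and none lower, beside 55.1% of all genes called in either direction. None was lower at an unadjusted p below 0.05, by DESeq2 or by limma-voom, and the median log2 fold change was 0.63. The 7 include BMP1 (0.63, SE 0.121), which encodes a metalloprotease and not a ligand of the family. The ligand gene AMH, which the list lacks, was at -0.86 (SE 0.336, edgeR adjusted p = 0.0621, unadjusted p = 0.0359) and was not called. GDF15, a stress-induced member of the family, had 153 and 199 CPM in the controls and 867 and 820 CPM with METTL14 (log2 fold change 2.26, SE 0.144). TGFB1, which encodes TGF-beta 1, had 167 and 144 CPM against 325 and 312 CPM (1.03, SE 0.11). BMP8A (2.11, SE 0.209) and BMP8B (0.81, SE 0.11) rose too, BMP8A from a low level of 2.12 ± 0.0528 to 9.14 ± 0.00373 CPM (SD, n = 2). These 2 genes are close paralogs, so reads may be divided between them.

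Receptors were also called upwards. Of 13 tested (18 listed), 6 (46.2%) were higher and none lower, beside 55.1% of all genes called in either direction. None was lower at an unadjusted p below 0.05, by DESeq2 or by limma-voom, and the median was 0.38. TGFBR3, a co-receptor that presents TGF-beta, had 103 and 109 CPM against 248.6 and 265 CPM (1.28, SE 0.1). BMPR2, the type II receptor of BMPs, had 23.0 and 28.1 CPM against 44.3 and 49.6 CPM (0.88, SE 0.137). ACVR1 (0.54, SE 0.109) and ACVR2A (0.56, SE 0.129) rose less, and both calls were lost without METTL14 overexpression replicate 1, at about the same fold changes of 0.51 and 0.58 (edgeR adjusted p = 0.0657 and 0.0667). Only 2 of the 6 calls were made without METTL14 overexpression replicate 1 and 3 without METTL14 overexpression replicate 2, and without control replicate 1 there were 6 higher and 1 lower.

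Among extracellular antagonists and proteins that store ligands, 4 of 13 tested were higher and 1 lower, with a median of 0.45, and without control replicate 2 there were 5 higher and 3 lower. Chordin (CHRD), which binds BMPs, had 1.56 and 2.001 CPM in the controls and 16.2 and 14.3 CPM with METTL14 (3.09, SE 0.212). The latent TGF-beta binding proteins LTBP4 (1.08, SE 0.109), LTBP1 (0.69, SE 0.108) and LTBP3 (0.60, SE 0.103) rose, and the LTBP3 value was 0.06 with the trend on length and GC content removed (edgeR adjusted p = 0.64). The gene that fell was THBS1, which encodes thrombospondin 1, an activator of latent TGF-beta, at -0.65 (SE 0.134).

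Genes whose products modify or anchor SMADs moved both ways, with 10 of 21 higher, 6 lower and a median of 0.17. The phosphatase gene CTDSP2 (0.96, SE 0.0965) and the SMAD ubiquitin ligase gene SMURF1 (0.71, SE 0.0974) rose. USP15, a deubiquitinase, at -1.09 (SE 0.122), and TRIM33, at -0.70 (SE 0.113), fell. Without METTL14 overexpression replicate 1 the counts were 5 and 3, and without METTL14 overexpression replicate 2 they were 5 and 4. Of 17 tested nuclear partners of SMADs 3 were higher and 2 lower. TGIF1, a corepressor, had 76.3 and 91.1 CPM against 275 and 273 CPM (1.71, SE 0.117). EP300, a coactivator, was at 0.43 (SE 0.0947) and TGIF2, named because it was the remaining gene called higher, at 0.40 (SE 0.123), and both calls were lost without METTL14 overexpression replicate 1 (0.46 and 0.38) or replicate 2 (0.40 and 0.43) at similar fold changes. With all 4 libraries the EP300 call was lost after the length and GC trend was taken out (0.20, edgeR adjusted p = 0.108), and the TGIF2 call by DESeq2 (0.41, adjusted p = 0.0888). TFDP1, the partner of E2F factors, at -1.04 (SE 0.109), and MECOM, a repressor that binds SMAD3, at -1.40 (SE 0.201), fell. Leaving out either control gave 7 higher, and leaving out either METTL14 overexpression library gave 1. The number lower was 4 without control replicate 1.

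Targets of TGF-beta did not share a direction: 6 of 23 tested (26.1%) were higher and 7 (30.4%) lower, with a median of 0.11. Both shares are close to those of all genes (27.0% and 28.1%). TGIF1 and TGFB1, which are in this list as well, rose. CCN1, a matricellular protein gene, fell from 328 and 390 CPM to 147 and 141 CPM (-1.32, SE 0.116), and RHOB from 129 and 170 CPM to 54.0 and 54.3 CPM (-1.46, SE 0.143). Without METTL14 overexpression replicate 1, and without replicate 2, 4 were higher and 5 lower, and by DESeq2 5 and 5.

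Targets of BMP were called upwards alone. Of 14 tested (22 listed), 6 (42.9%) were higher and none lower, beside 55.1% of all genes called in either direction. None was lower at an unadjusted p below 0.05, by DESeq2 or by limma-voom, and the median was 0.40. KLF4, a factor of differentiated epithelium, had 55.3 and 73.1 CPM against 164 and 156 CPM (1.32, SE 0.142). ATOH8, a BMP-induced helix-loop-helix gene, had 2.34 and 1.64 CPM against 6.42 and 5.39 CPM (1.56, SE 0.276), and HEY2 1.04 and 1.08 against 4.01 and 5.19 CPM (2.11, SE 0.311). SMURF1 is counted here too. Without control replicate 1 the list had 8 higher and 1 lower. ID1, ID2 and ID3 were kept out of this list, and ID4 and SMAD9 stood in it but did not pass the filter.

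**Figure D4:**
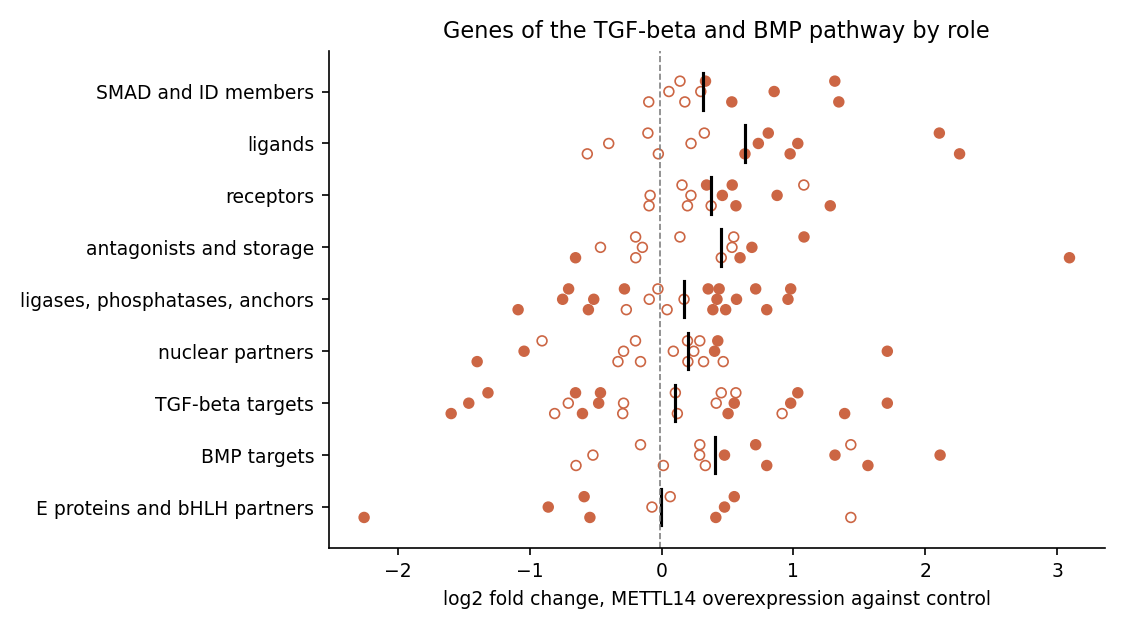
Log2 fold changes of the tested genes of each list, METTL14 overexpression against control, filled where the edgeR adjusted p was below 0.05, with a black bar at each list's median and a dashed line at the median of all tested genes (-0.01). Filled points of the ligand, receptor and BMP target lists all lie above 0, while those of the TGF-beta target list lie on both sides.

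The list of E proteins and other partners of ID factors was called in both directions, with 3 of 10 tested higher and 4 lower and a median of 0.00. TCF4, an E protein gene, fell from 3.12 and 2.46 CPM to 0.668 and 0.494 CPM (-2.25, SE 0.383). The better expressed E protein genes did not fall in this way. TCF12 had 46.7 and 52.4 CPM against 63.3 and 68.6 CPM and was called higher (0.41, SE 0.111). That call was lost without METTL14 overexpression replicate 1 (0.47) or replicate 2 (0.35). TCF3 had 262 and 230 CPM against 241 and 228 CPM and was not called (-0.07, SE 0.106). The helix-loop-helix genes BHLHA15 (-0.59, SE 0.121) and HES4 (-0.54, SE 0.114) fell, and both calls were lost without METTL14 overexpression replicate 2, at -0.50 and -0.47. CDKN1A, a cell cycle inhibitor gene that was put in this list although it encodes no helix-loop-helix protein, rose (0.55, SE 0.127) and is 1 of the 3. Without METTL14 overexpression replicate 1 there were 1 higher and 3 lower, and without METTL14 overexpression replicate 2 there were 1 and 1.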

How the data were processed

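Poly(A) RNA of 4 libraries was grouped by the labels' titles. The submitters' processing notes name HISAT2, Bowtie2, StringTie, RSEM and fastp, with no version or role, and the build hg18. Of the 20323 gene identifiers 20171 are in GENCODE release 29, so coordinates are those of GRCh38, used for position, length and sequence only. The deposited values are the authors' expected counts per gene, not normalized (10.8 to 11.6% of them not whole), and were rounded. Rows without a symbol (102) held at most 0.0366% of counts. Where a symbol had several rows, the row with the highest mean count was used.

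Counts were analysed with edgeR 4.0.16 in R 4.3.3 (filterByExpr with a minimum count of 10, TMM, robust quasi-likelihood test, no covariate), checked on simulated data. The simulated data had few changed genes and the same spread in both groups, unlike these libraries, so the check does not cover those conditions. Approximate standard errors were the size of the log2 fold change over the root of F, and intervals used the test's degrees of freedom. A biological coefficient of variation of 10.8% was estimated over all genes. Since a group has 2 libraries, p-values rest on a spread shared over genes, and if the libraries of a group are not separate cultures they measure technical spread only. Members and lists were chosen with earlier results of these data known. Genes named are the members, METTL14, SMAD9, ID4, up to 4 genes with the smallest p of each list and a few more, such as TCF12 and TCF3. Alternatives were DESeq2 1.42.0, its size factors, limma-voom (limma 3.58.1), library totals only, no filter, a minimum of 5 CPM in 2 libraries, replicate number as a block, no robust step, a change beyond 1.5-fold, leaving out each library and, chosen after seeing the data, removal of a loess trend on exon length and GC content over 12650 genes. RefSeq promoters (GRCh38.p14) matched all 10 members. Python 3.11.15 served for sequence work.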

Additional observations from a re-analysis of the deposited data

How the results depend on the processing

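The number of members higher, 5, was 3 to 7 when libraries were left out in turn, 6 with the replicate block and 1 when a change beyond 1.5-fold was asked for. No member was called lower in any setting run. SMAD7 was just above the threshold after the length and GC trend was taken out (-0.30, SE 0.109, edgeR adjusted p = 0.0514). Of the 163 pathway genes, 38 higher and 19 lower became 14 and 7 beyond 1.5-fold, and 22 to 49 and 12 to 25 when libraries were left out. The log2 fold change of SMAD5 turned from 0.06 to -0.06 without control replicate 1 and to -0.04 without METTL14 overexpression replicate 2 (range over libraries left out -0.0616 to 0.186); the cause was not tested. ID1 kept its call in all 15 alternatives (1.19 to 1.51), and ID3 (0.58 to 1.196) and SMAD3 (0.32 to 0.66) in all but the change beyond 1.5-fold. The labels number the replicates alike, but nothing says that a number marks a shared culture. Deviations of log2 CPM from the group mean correlated weakly between control replicate 1 and METTL14 overexpression replicate 1 (0.111 over 12700 genes). The replicate block called ID2 as higher (0.31, edgeR adjusted p = 0.0188) and changed no other call among the members. SMAD6 was not tested with the filter of 5 CPM. Summing the rows of a symbol changed nothing, since each member has 1 row. SMAD6, with 18 to 90 counts, and SMAD9 and ID4, with 1 to 6, are limited by depth.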

Other observations

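Values of 3 more genes of the lists are given here after they were seen. Control replicate 1 was the lower control for JUNB, an immediate early gene, at 39.4 CPM against 88.1 CPM in control replicate 2 and 39.8 and 38.3 CPM with METTL14. Its log2 fold change of -0.71 (SE 0.329, edgeR adjusted p = 0.109) was not called.

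BMP4, a BMP ligand known from colorectal cancer cells, had 755 and 546 CPM in the controls and 825 and 804 CPM with METTL14. Its log2 fold change of 0.32 (SE 0.153, edgeR adjusted p = 0.11) was not called. SKIL, a SMAD corepressor and TGF-beta target, had 4.68 and 7.54 CPM in the controls and 4.78 and 5.24 CPM with METTL14, and was not called either (-0.29, SE 0.268).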
